A study of Homo sapiens with 6 samples.

Results

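The class II genes of the major histocompatibility complex and the genes that switch them on were followed through sorted cells of 3 related breast cancer lines. The set holds 10 genes, chosen by symbol: the chain genes HLA-DPA1, HLA-DPB1 and HLA-DRA, the peptide-loading genes HLA-DMA, HLA-DMB and HLA-DOA, the invariant chain gene CD74, the transcription genes CIITA and RFX5, and the reductase gene IFI30. The genes were chosen with earlier results of these data known, so their counts beside all clusters are a description. Each gene was read from the transcript cluster (the probe set of the array that stands for a gene) with the highest mean over all arrays. Of the 18417 symbols that had a cluster of their own, 8 were members. HLA-DRA and CD74 had none of their own: the array annotation lists HLA-DRA together with HLA-DQA1 and CD74 together with ROS1, so these clusters are named here by both symbols (HLA-DRA/HLA-DQA1 and CD74/ROS1) and counted apart. The accessions of those clusters included 1 RefSeq transcript of HLA-DRA, 3 of CD74, and none of HLA-DQA1 or ROS1.

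Each of 6 Affymetrix Human Gene 1.0 ST arrays took RNA from cells sorted as CD24-/CD44+/ESA+ (ESA is the product of EPCAM), a profile used to enrich stem-like breast cancer cells, with 2 arrays for each line. MDA-MB-231 is a triple-negative breast cancer line. From it, 231BoM-1833 was selected for metastasis to bone and 231BrM-2a for metastasis to brain. All lines were grown alike in RPMI-1640 with 10% serum, with no drug or genetic change added, and each array took 100 ng of total RNA. The labels call the replicates biological without naming separate cultures, so p-values rest on a spread between arrays that may be technical in part.

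MHC class II molecules are pairs of an alpha and a beta chain that carry peptides from the endosome to the cell surface for CD4 T cells. They form with the invariant chain (CD74), which blocks the groove until endosomal proteases cut it down, and the HLA-DM pair then exchanges the last fragment for a peptide, a step that HLA-DO holds back. Transcription of these genes needs the coactivator CIITA, which binds no DNA itself but docks on a complex of RFX, NF-Y and CREB factors at conserved promoter elements called the X and Y boxes. B cells, dendritic cells and macrophages carry class II all the time, while many epithelial and tumour cells acquire it only after interferon gamma.

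The promoter stretches of the chain, loading and invariant chain genes with an entry are shown so that these boxes can be seen beside the values. RefSeq promoters (GRCh38.p14) were given for 8 of the 10 members, HLA-DRA and CIITA being the exceptions. The table runs from 250 bases before to 50 after a gene start, and the 120 bases from 150 to 31 before the start are printed 5′ to 3′ on the gene's strand. Capitals mark the Y box core ATTGG (or its reverse CCAAT), part of the X box as ACNGATG, and another form of the X box as CAACAGA, which can overlap the former. HLA-DPA1 has 2 entries, and the second is printed because it holds a match, which the first (chr6:33080779-33080898, minus strand) does not for any of these motifs.
HLA-DMA (chr6:32953128-32953247, minus strand): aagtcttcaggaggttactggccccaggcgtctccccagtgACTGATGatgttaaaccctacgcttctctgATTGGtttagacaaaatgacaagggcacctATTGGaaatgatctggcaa
HLA-DMB (chr6:32941059-32941178, minus strand): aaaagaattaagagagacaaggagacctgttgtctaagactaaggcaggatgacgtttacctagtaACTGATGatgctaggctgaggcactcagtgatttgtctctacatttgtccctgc
HLA-DPA1 (chr6:33073680-33073799, minus strand): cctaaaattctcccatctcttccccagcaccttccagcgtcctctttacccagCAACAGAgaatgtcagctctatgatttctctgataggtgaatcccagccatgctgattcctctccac
HLA-DPB1 (chr6:33075840-33075959, plus strand): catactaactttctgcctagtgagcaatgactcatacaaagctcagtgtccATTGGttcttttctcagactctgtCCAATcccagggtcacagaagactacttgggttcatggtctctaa
HLA-DOA (chr6:33009622-33009741, minus strand): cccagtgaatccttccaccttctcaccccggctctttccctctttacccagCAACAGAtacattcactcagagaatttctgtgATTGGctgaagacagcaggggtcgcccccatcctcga
CD74 (chr5:150412941-150413060, minus strand): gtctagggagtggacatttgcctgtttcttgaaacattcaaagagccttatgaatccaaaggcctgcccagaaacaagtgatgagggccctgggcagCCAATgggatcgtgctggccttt

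Searched on both strands over the whole table, ATTGG was present in 34.6% of 35116 promoter entries and in 7 of the 8 members with an entry, all but HLA-DPA1. ACNGATG was present in 7.65% of entries and in 3 members, HLA-DMA, HLA-DMB and CD74. The ACNGATG match of CD74 and the ATTGG match of HLA-DMB lie outside the printed bases. The pair, ACNGATG followed by ATTGG after 15 to 30 bases, was present in 0.114% of entries (40), among them HLA-DMA, where 23 bases lie between the parts, and the class II genes HLA-DRB1, HLA-DRB5 and HLA-DQB1. CAACAGA, a form searched for once the promoters had been read, was in 3.67% of entries and in HLA-DPA1 and HLA-DOA. These matches describe letters in a window and not binding.

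In 231BoM-1833 the HLA-DP genes, the HLA-DM genes and the joint clusters stood well above the parental line, and HLA-DOA did not pass. In 231BrM-2a HLA-DPA1 and the joint clusters fell, and the HLA-DM genes and HLA-DPB1 did not pass. HLA-DPB1 and HLA-DMB had means of only 6.28 and 6.59 in MDA-MB-231, against 7.78 for HLA-DMA. Array medians were 6.58 to 6.64 and no detection limit was given, so how far HLA-DPB1 and HLA-DMB could fall is not known. Of the 8 members with their own cluster, 5 rose in 231BoM-1833 against MDA-MB-231 (HLA-DPA1, HLA-DPB1, HLA-DMA, HLA-DMB and RFX5), 0 fell and 3 did not pass. Among all 21214 clusters with a symbol, 15.8% were called in that comparison, 8.43% higher and 7.38% lower. The median log2 change of the 8 was 1.15, against -0.052 over all clusters. With the joint clusters included, 7 of 10 rose and the median was 1.66. Both 231BoM-1833 arrays lay above both MDA-MB-231 arrays for 6 of the 8 members and below them for 0, against 24.1% and 35.7% of all clusters. Calls here and below are limma's, with a Benjamini-Hochberg adjusted p under 0.05. Log2 values are RMA values, differences are log2 change ± SE from 2 arrays a line, and member values are given array by array, replicate 1 first. In bulk RNA, more cells carrying a transcript and more transcript per cell cannot be told apart.

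**Figure D1:**
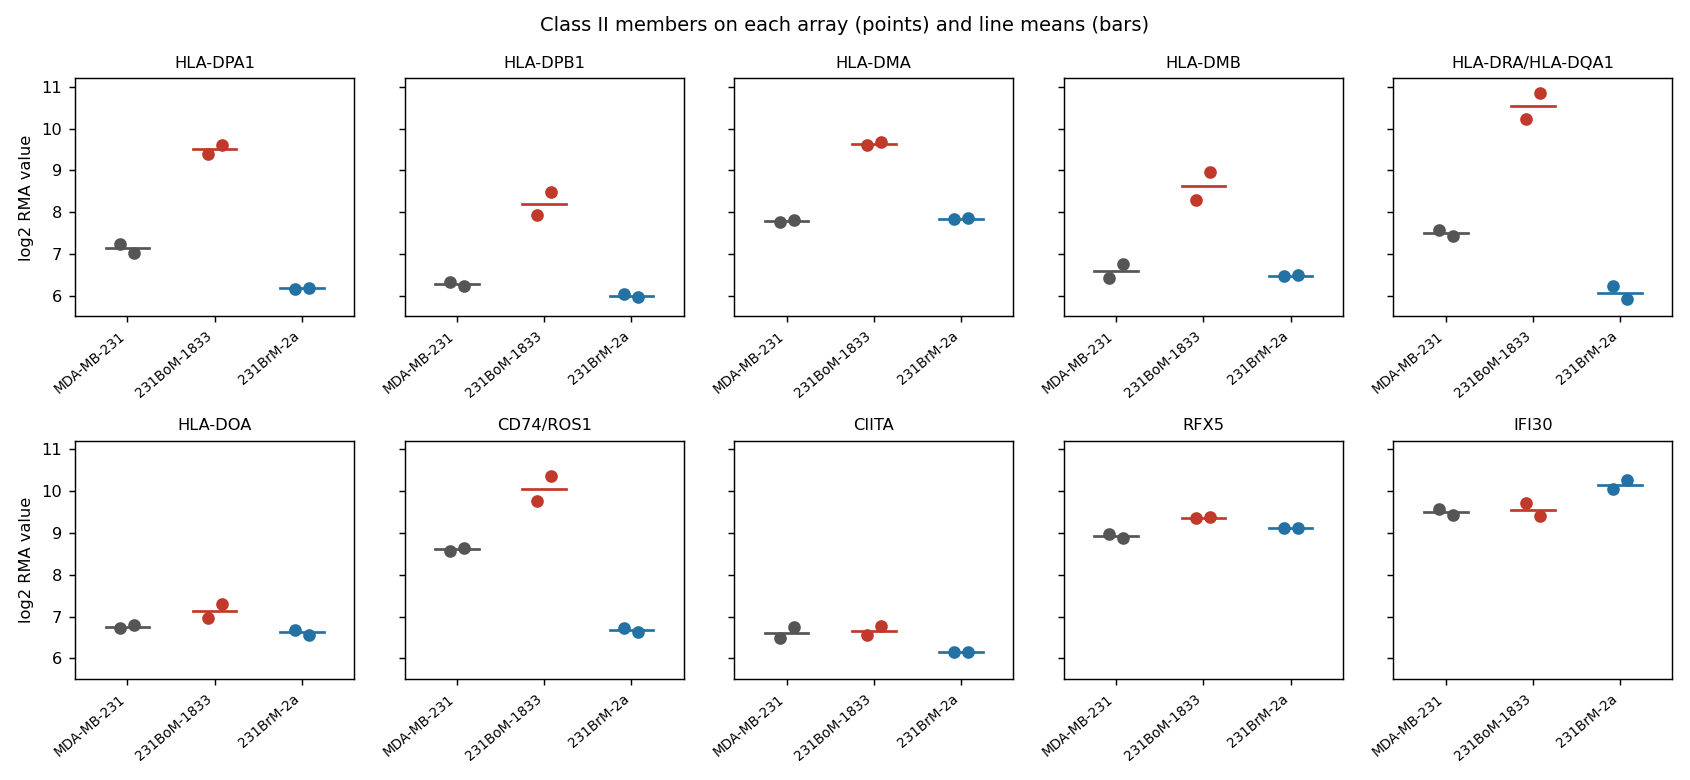
Log2 RMA value of each member on each of the 6 arrays, with points for arrays and bars for the means of the 3 lines. The 231BoM-1833 arrays of HLA-DPA1 lie at 9.40 and 9.61, above the MDA-MB-231 arrays at 7.03 and 7.23 and the 231BrM-2a arrays at 6.16 and 6.18, whereas IFI30 is highest in 231BrM-2a.

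Among the chains that present peptide, the cluster of HLA-DRA/HLA-DQA1 showed the widest span. HLA-DRA encodes the nearly invariant alpha chain of HLA-DR. The HLA-DRA/HLA-DQA1 cluster read 7.56 and 7.43 on the MDA-MB-231 arrays, 10.24 and 10.84 on the 231BoM-1833 arrays and 6.22 and 5.92 on the 231BrM-2a arrays. The 3 lines did not overlap, with 231BoM-1833 highest and 231BrM-2a lowest. The log2 change from MDA-MB-231 was 3.04 ± 0.19 in 231BoM-1833 (8.24-fold, adjusted p = 2.5e-05) and -1.42 ± 0.19 in 231BrM-2a (2.68-fold lower, adjusted p = 0.00109). The derivatives differed by 22.1-fold (adjusted p = 9.45e-07). The other clusters of HLA-DRA/HLA-DQA1 gave smaller values. They rose 7.63-fold and 7.58-fold in 231BoM-1833 and fell 2.06-fold and 2.13-fold in 231BrM-2a, and the derivatives were 15.8-fold and 16.1-fold apart.

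HLA-DPA1, the alpha chain of HLA-DP, followed the same order. It read 7.23 and 7.03 in MDA-MB-231, 9.40 and 9.61 in 231BoM-1833 and 6.16 and 6.18 in 231BrM-2a, again with no overlap between any pair of lines. It rose 5.21-fold in 231BoM-1833 (2.38 ± 0.12, adjusted p = 1.19e-05) and fell 1.95-fold in 231BrM-2a (-0.96 ± 0.12, adjusted p = 0.000843). The derivatives were 10.1-fold apart (adjusted p = 5.16e-07). Its beta chain partner HLA-DPB1 read 6.33 and 6.22 in MDA-MB-231, 7.93 and 8.47 in 231BoM-1833 and 6.03 and 5.97 in 231BrM-2a. HLA-DPB1 thus rose 3.78-fold in 231BoM-1833 (1.92 ± 0.16, adjusted p = 0.000168), while its difference of -0.28 ± 0.16 in 231BrM-2a did not pass (adjusted p = 0.274, 95% interval -0.64 to 0.09). Whether the alpha and beta chains differ in how far 231BrM-2a departs from MDA-MB-231 was not tested.

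CD74, whose product is the chaperone of newly made class II and also a surface receptor for the cytokine MIF, was read through the CD74/ROS1 cluster. The CD74/ROS1 cluster read 8.56 and 8.65 in MDA-MB-231, 9.76 and 10.37 in 231BoM-1833 and 6.72 and 6.63 in 231BrM-2a. The lines were separate, in the same order as for HLA-DPA1. The change was 1.46 ± 0.18 in 231BoM-1833 (2.75-fold, adjusted p = 0.00118) and -1.93 ± 0.18 in 231BrM-2a (3.82-fold lower, adjusted p = 0.000134), so that here the departure of the brain-selected line was numerically the larger. Between the derivatives the CD74/ROS1 cluster differed 10.5-fold (adjusted p = 3.02e-06).

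HLA-DMA and HLA-DMB encode the chains of the peptide exchange factor HLA-DM. HLA-DMA read 7.77 and 7.80 in MDA-MB-231, 9.60 and 9.68 in 231BoM-1833 and 7.83 and 7.85 in 231BrM-2a. The bone-selected arrays stood far above the rest and the brain-selected ones just above the parental ones, and the rise in 231BoM-1833 was 3.63-fold (1.86 ± 0.10, adjusted p = 1.19e-05). HLA-DMB read 6.42 and 6.76 in MDA-MB-231, 8.29 and 8.97 in 231BoM-1833 and 6.47 and 6.49 in 231BrM-2a, where the parental and brain-selected arrays overlapped. HLA-DMB rose 4.11-fold in 231BoM-1833 (2.04 ± 0.20, adjusted p = 0.000453). In 231BrM-2a, HLA-DMA differed from MDA-MB-231 by 0.06 ± 0.10 (95% interval -0.17 to 0.28, adjusted p = 0.743) and HLA-DMB by -0.10 ± 0.20 (95% interval -0.57 to 0.36, adjusted p = 0.765). These intervals bound the differences and do not show that the lines are alike.

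HLA-DOA, the alpha chain of the HLA-DO inhibitor of HLA-DM, moved little. It read 6.73 and 6.79 in MDA-MB-231, 6.96 and 7.31 in 231BoM-1833 and 6.68 and 6.56 in 231BrM-2a, in the same order of lines but over a range of line means of only 0.52. Its difference of 0.37 ± 0.13 in 231BoM-1833 did not pass (adjusted p = 0.0862), but passed without 231BoM-1833 replicate 1 (0.55, adjusted p = 0.0258). It was lower in 231BrM-2a than in 231BoM-1833 by -0.52 ± 0.13 (adjusted p = 0.0207). It no longer passed with replicate 2 of 231BoM-1833 left out (adjusted p = 0.0974), with either array of 231BrM-2a left out (0.0621 and 0.126) or when unnamed clusters were tested as well (0.0596).

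IFI30 encodes the interferon-inducible thiol reductase that opens disulphide bonds of proteins in the endosome, and it had another order. IFI30 read 9.58 and 9.42 in MDA-MB-231, 9.72 and 9.41 in 231BoM-1833 and 10.05 and 10.27 in 231BrM-2a, so the parental and bone-selected arrays overlapped and both brain-selected arrays were above them. It rose 1.57-fold in 231BrM-2a (0.65 ± 0.14, adjusted p = 0.0104), which did not pass without MDA-MB-231 replicate 2 (adjusted p = 0.0911) or 231BrM-2a replicate 2 (0.0907). In 231BoM-1833 its difference was 0.06 ± 0.14 (95% interval -0.25 to 0.37, adjusted p = 0.79). Against 231BoM-1833, IFI30 was higher in 231BrM-2a by 0.59 ± 0.14 (adjusted p = 0.0131), which did not pass without 231BoM-1833 replicate 2 (0.0684) or 231BrM-2a replicate 2 (0.105).

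**Figure D2:**
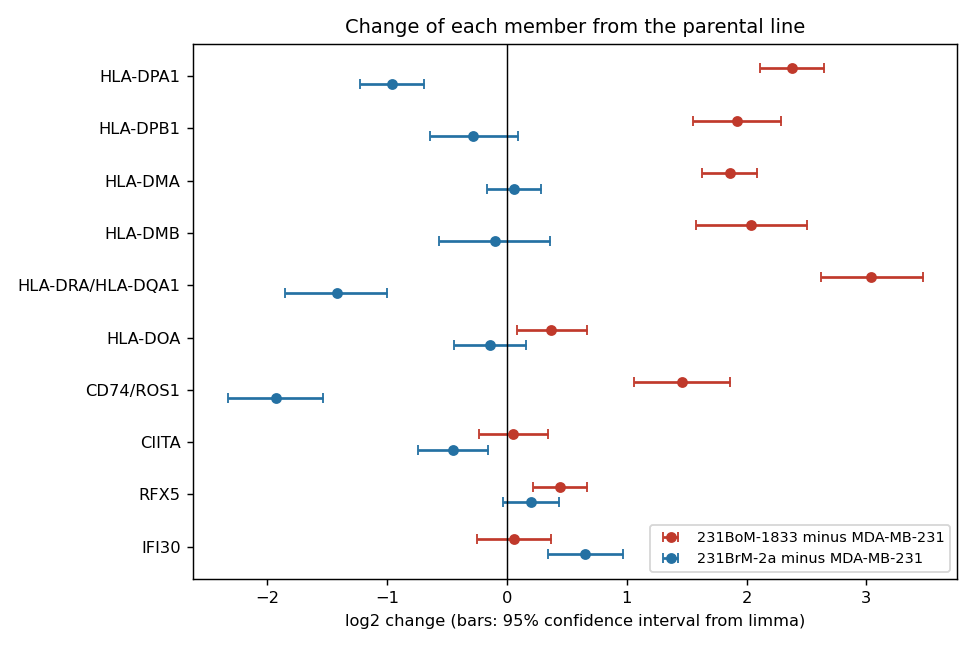
Log2 change of each member from MDA-MB-231, with 95% confidence intervals from limma, in 231BoM-1833 (red) and 231BrM-2a (blue). HLA-DPA1, HLA-DRA/HLA-DQA1 and CD74/ROS1 lie on opposite sides of 0 in the derivatives, and the interval of CIITA in 231BoM-1833 spans -0.23 to 0.34.

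CIITA, the coactivator on which the class II promoters depend, was not called in the bone-selected line against MDA-MB-231. CIITA read 6.48 and 6.74 in MDA-MB-231, 6.56 and 6.77 in 231BoM-1833 and 6.16 and 6.16 in 231BrM-2a. The parental and bone-selected arrays overlapped, with a difference of 0.05 ± 0.13 (95% interval -0.23 to 0.34, adjusted p = 0.805), and its sign turned with replicate 1 of MDA-MB-231 left out (-0.076) or replicate 2 of 231BoM-1833 left out (-0.055). CIITA fell 1.37-fold in 231BrM-2a (-0.45 ± 0.13, adjusted p = 0.0369). It did not pass with replicate 2 of MDA-MB-231 left out (adjusted p = 0.239), with either array of 231BrM-2a left out (0.142 and 0.148) or when unnamed clusters were tested as well (0.0937). Set against 231BoM-1833, the CIITA value of 231BrM-2a was lower (-0.50 ± 0.13, adjusted p = 0.0191), but did not pass with replicate 2 of 231BoM-1833 left out (0.0924) or either 231BrM-2a array left out (0.0911 and 0.0888), nor with all clusters tested (0.0553). The array gives 1 value for CIITA and does not tell apart the transcripts that start at its alternative promoters. All its values lay near the array medians of 6.58 to 6.64, and no detection limit was given. How much of a change in CIITA background could hide is therefore not known.

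RFX5 encodes the large subunit of the RFX complex that binds the X box. RFX5 read 8.97 and 8.89 in MDA-MB-231, 9.36 and 9.39 in 231BoM-1833 and 9.12 and 9.13 in 231BrM-2a, with every line separate but close. It rose 1.36-fold in 231BoM-1833 (0.44 ± 0.10, adjusted p = 0.0195), which did not pass with either array of MDA-MB-231 left out (0.0691 and 0.127) or with replicate 2 of 231BoM-1833 left out (0.0548). In 231BrM-2a the difference of 0.20 ± 0.10 did not pass (adjusted p = 0.203).

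In the brain-selected line against MDA-MB-231, 1 of the 8 members rose (IFI30), 2 fell (HLA-DPA1 and CIITA) and 5 did not pass. Over all clusters, 19.0% were called, 10.5% higher and 8.59% lower. With the joint clusters, 4 of 10 fell. The arrays of 231BrM-2a lay wholly above those of MDA-MB-231 for 3 members and wholly below for 4, against 27.2% and 36.6% of all clusters. Set directly against 231BoM-1833, 6 of the 8 were lower in 231BrM-2a (HLA-DPA1, HLA-DPB1, HLA-DMA, HLA-DMB, HLA-DOA and CIITA), 1 was higher (IFI30) and RFX5 did not pass, where 23.5% of all clusters were called and 11.0% were lower. The median log2 difference of the 8 was -1.16, against 0.013 over all clusters. The 231BrM-2a arrays lay wholly above the 231BoM-1833 arrays for 1 member and wholly below for 7, against 32.0% and 28.1% of all clusters. The comparisons share arrays, so their member values stand side by side and are not separate evidence.

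The array carries several clusters for many of these genes, because the class II region is laid out in more than 1 version, and 16 of the 37 clusters for members and other class II chains bear several symbols. Of the 37, 26 were called higher and 0 lower in 231BoM-1833 against MDA-MB-231, where 8.43% and 7.38% of all clusters were. In 231BrM-2a 1 was higher and 8 were lower, where 10.5% and 8.59% of all clusters were. The 3 clusters of HLA-DPA1 gave log2 changes of 2.27 to 2.38 in 231BoM-1833 and -0.98 to -0.96 in 231BrM-2a. The 3 clusters of HLA-DPB1 ranged from 1.38 to 1.92 in 231BoM-1833 and from -0.28 to 0.08 in 231BrM-2a. In all, 8 of the 37 had values identical to another cluster and are no independent measurement.

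The other class II chains gave mixed values in the bone-selected line. The beta chains of HLA-DR share most of their sequence and were read together on a cluster bearing HLA-DRB1, HLA-DRB3, HLA-DRB4, HLA-DRB5, HLA-DRB6 and HLA-DQB1. That HLA-DRB joint cluster read 6.83 and 6.60 in MDA-MB-231, 10.06 and 10.45 in 231BoM-1833 and 6.41 and 6.64 in 231BrM-2a. It was 11.7-fold higher in 231BoM-1833 (3.54 ± 0.16, adjusted p = 7.79e-06), and its difference in 231BrM-2a was -0.19 ± 0.16 (adjusted p = 0.436). Of the 4 other chains with a cluster of their own, 2 rose and 0 fell in 231BoM-1833, against 8.43% and 7.38% of all clusters. HLA-DRB5 rose 2.29-fold (adjusted p = 0.00812), a call lost without MDA-MB-231 replicate 1 (0.0598) or replicate 2 (0.0534). HLA-DOB, the beta chain of HLA-DO, rose 1.54-fold (adjusted p = 0.0201), a call lost with replicate 1 of MDA-MB-231 (0.109) or of 231BoM-1833 (0.0662) left out or with all clusters tested (0.0612). A further cluster, of HLA-DRB1/HLA-DQB1, had a difference of 0.32 (adjusted p = 0.0666). HLA-DQA1 had a difference of 0.11 (adjusted p = 0.555) and HLA-DQB1 one of -0.10 (adjusted p = 0.588). On the clusters that HLA-DQ genes share the values were mixed. The 4 clusters of HLA-DQB2/HLA-DQB1 (3 different profiles) gave changes from 0.68 to 2.24 in 231BoM-1833, all called. The 4 of HLA-DQA2/HLA-DQA1 (also 3 different profiles) gave changes from 0.18 to 0.58, none of which passed (adjusted p = 0.0562 to 0.448).

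**Figure D3:**
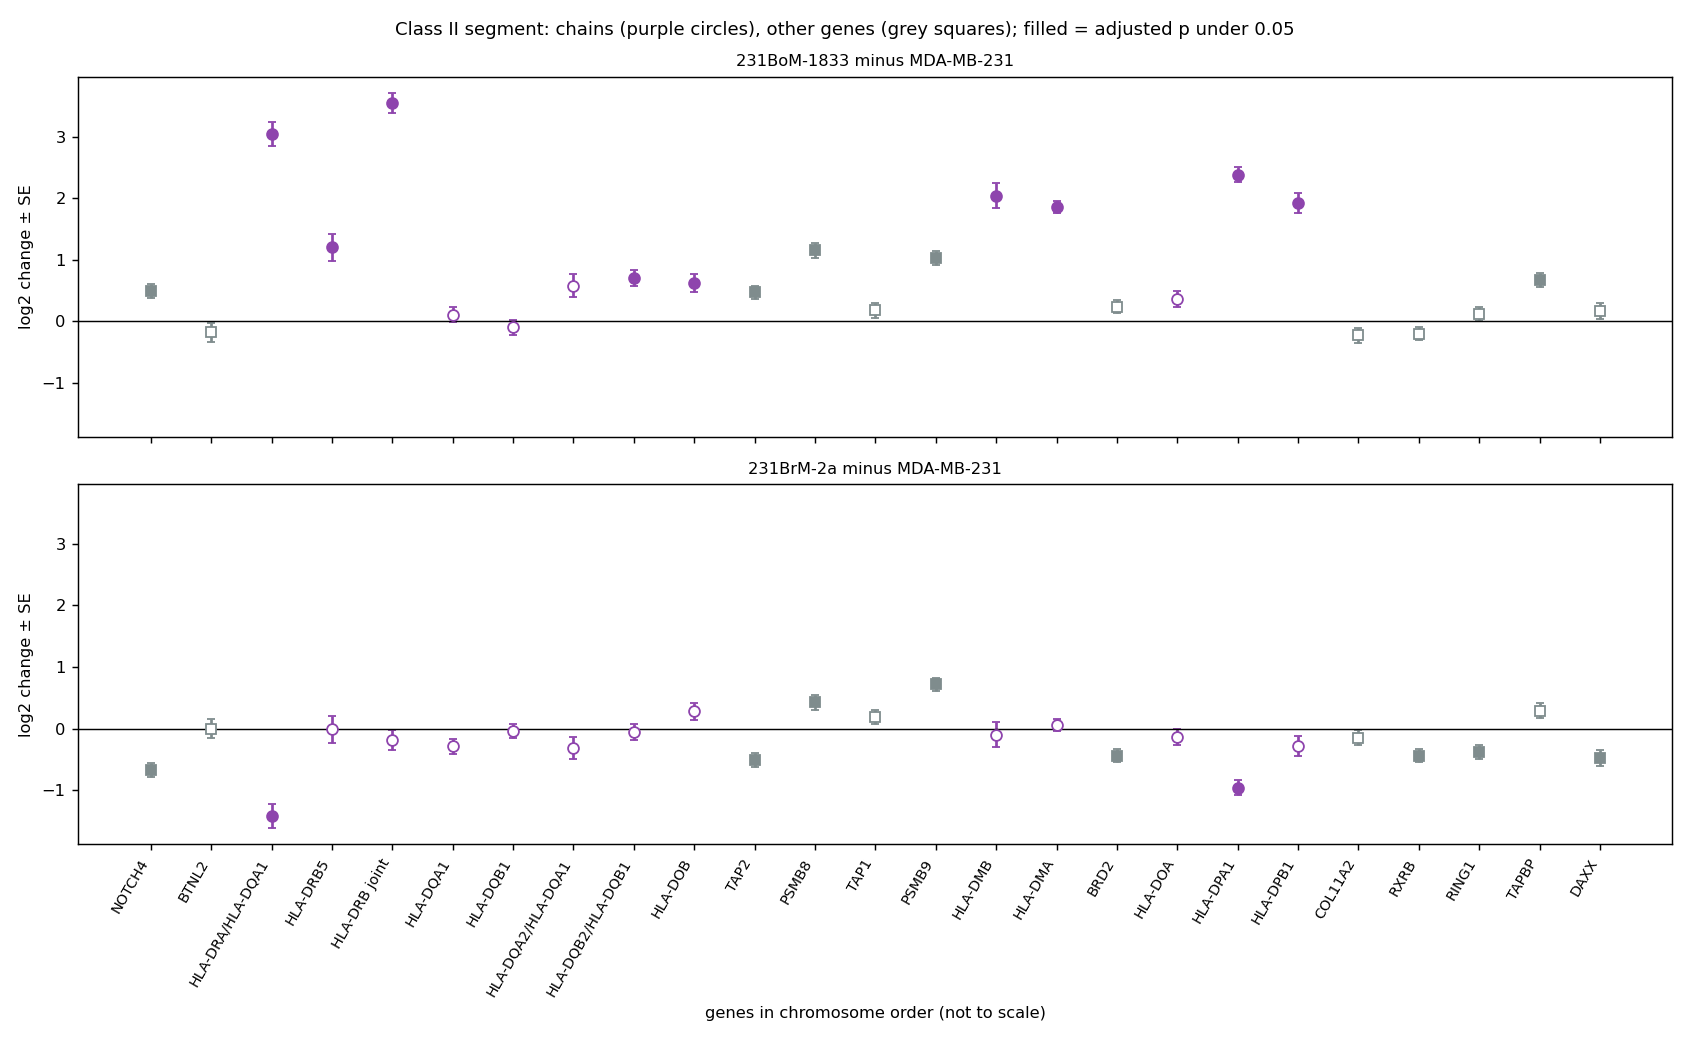
Log2 change ± SE of class II chains (purple circles) and of other genes listed for the same segment of chromosome 6 (grey squares), in RefSeq order and not to scale, for 231BoM-1833 and 231BrM-2a against MDA-MB-231. Filled symbols have an adjusted p under 0.05. In the upper panel the HLA-DRB joint cluster (3.54) and HLA-DRA/HLA-DQA1 (3.04) are highest. Among the chains lie TAP2 (0.47), PSMB8 (1.15) and PSMB9 (1.03), which passed, and BRD2 (0.24) and TAP1 (0.18), which did not.

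The class II segment also holds genes with other roles. Of 12 listed from the segment and its flanks, 5 rose in 231BoM-1833 and 0 fell, against 8.43% and 7.38% of all clusters. Their median change was 0.21. PSMB8 (2.22-fold, adjusted p = 0.000635) and PSMB9 (2.04-fold, adjusted p = 0.000635), subunits of the immunoproteasome that cuts peptides for class I, lie between HLA-DOB and HLA-DMB, and were called under every alternative in this comparison. The others were TAPBP, TAP2 and NOTCH4, none of which passed with replicate 1 of MDA-MB-231 left out (adjusted p = 0.0634, 0.121 and 0.0666) or with its replicate 2 left out (0.0536, 0.0707 and 0.112), and TAP2 and NOTCH4 also without 231BoM-1833 replicate 2 (0.0596 and 0.0536). BRD2, a chromatin reader gene between HLA-DMA and HLA-DOA, had a difference of 0.24 ± 0.11 (adjusted p = 0.16), and COL11A2 and RXRB, beyond HLA-DPB1, had differences of -0.23 and -0.20 (adjusted p = 0.225 and 0.249). In 231BrM-2a the median of the 12 was -0.26, and 10.5% of all clusters rose and 8.59% fell. Of the 12, 2 rose (PSMB8 and PSMB9) and 6 fell (NOTCH4, TAP2, BRD2, RXRB, RING1 and DAXX). Of these, PSMB9 (1.65-fold, adjusted p = 0.00225) and NOTCH4 (1.59-fold lower, adjusted p = 0.00279) passed with any 1 array left out, whereas each of the others lost its call without at least 1 MDA-MB-231 array (adjusted p = 0.0655 to 0.184).

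Among 17 genes of the endosomal steps that prepare peptide and invariant chain, 4 rose and 1 fell in 231BoM-1833, with a median change of 0.07. The shares over all clusters were 8.43% and 7.38%. CTSS, the cathepsin that makes the last cuts in the invariant chain in antigen-presenting cells, read 7.19 and 6.86 in MDA-MB-231, 9.0 and 8.72 in 231BoM-1833 and 7.96 and 7.62 in 231BrM-2a. The CTSS rise of 3.56-fold in 231BoM-1833 (1.83 ± 0.16, adjusted p = 0.00022) was called under every alternative. The cathepsin gene CTSV rose 2.90-fold (adjusted p = 0.000202) and LAMP2, a lysosomal membrane protein gene, 1.75-fold (adjusted p = 0.00361). CD82 rose by 0.36 and LAMP1 changed by -0.44 (adjusted p = 0.0445 and 0.0361). The CD82 call was lost without any 1 of the 6 arrays, and that of LAMP1 without any 1 other than 231BoM-1833 replicate 2. With all 6 arrays, both calls were also lost when unnamed clusters were tested as well (0.0848 for CD82 and 0.0812 for LAMP1). The same held with the replicate number added to the model (0.0762 and 0.0552).

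In 231BrM-2a the cathepsin genes CTSV, CTSL, CTSB, CTSH and CTSS were higher than in MDA-MB-231. Of the 17, 5 rose and 2 fell, against 10.5% and 8.59% of all clusters. Their median was -0.02. CTSV rose 4.93-fold (adjusted p = 1.5e-05), CTSL 2.0-fold (0.000375), CTSB 1.87-fold (0.000542) and CTSH 1.85-fold (0.00193). CTSS rose 1.70-fold (adjusted p = 0.0108), a call lost without MDA-MB-231 replicate 2 (0.0993) or 231BrM-2a replicate 1 (0.0859). MARCHF1, a ubiquitin ligase gene whose product removes class II from the surface, fell 1.77-fold (adjusted p = 0.00736), which did not pass without MDA-MB-231 replicate 2 (0.0743) or 231BrM-2a replicate 2 (0.0595). AP1M1, an adaptor subunit gene, fell by 0.46 (adjusted p = 0.0223), a call lost without any 1 of the 4 arrays compared (0.052 to 0.149).

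Of 17 measured genes of class II transcription other than CIITA and RFX5, 1 rose and 1 fell in 231BoM-1833, with a median of -0.03. The shares over all clusters were 8.43% and 7.38%. CREB1, whose product binds within the X box, rose 1.35-fold (adjusted p = 0.0225), which did not pass with either array of MDA-MB-231 left out (0.0746 and 0.141) or with replicate 1 of 231BoM-1833 left out (0.0661). CARM1, a methyltransferase that acts on class II coactivators, fell 1.61-fold (adjusted p = 0.00472). The further RFX subunit genes RFXANK (-0.01 ± 0.11, adjusted p = 0.945) and RFXAP (-0.26, adjusted p = 0.203) did not pass. In 231BrM-2a, RFXAP (0.50, adjusted p = 0.027) and NLRC5 (0.46, adjusted p = 0.0255), the CIITA relative that drives class I, were higher and the acetyltransferase gene KAT2B was lower (-0.47, adjusted p = 0.0254). Each of these 3 calls was lost without either MDA-MB-231 array or 231BrM-2a replicate 2 (adjusted p = 0.053 to 0.184), and those of RFXAP and KAT2B also without 231BrM-2a replicate 1 (0.161 and 0.119).

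Interferon gamma is the classical inducer of CIITA, and its route was set beside the members. Of 19 measured genes, 2 rose and 0 fell in 231BoM-1833, against 8.43% and 7.38% of all clusters. In 231BrM-2a 3 of the 19 rose and 0 fell, against 10.5% and 8.59%. The medians were 0.08 and 0.05. GBP2, a guanylate-binding protein gene, rose 2.75-fold in 231BoM-1833 (adjusted p = 0.000505) and 4.01-fold in 231BrM-2a (adjusted p = 5.46e-05). GBP4 rose 1.55-fold in 231BoM-1833 (adjusted p = 0.0289), a call lost without either MDA-MB-231 array (0.0867 and 0.169) or 231BoM-1833 replicate 1 (0.087). IRF1, an interferon-responsive transcription factor gene, rose 1.64-fold in 231BrM-2a (adjusted p = 0.00208). USF1 rose by 0.54 in 231BrM-2a (adjusted p = 0.0307), a call lost without MDA-MB-231 replicate 2 (0.216) or 231BrM-2a replicate 2 (0.206). IFNG itself had means of 3.95, 3.95 and 3.92 in the parental, bone-selected and brain-selected line. The chemokine genes CXCL9, CXCL10 and CXCL11, which interferon gamma induces, had adjusted p of 0.332 to 0.884 in both comparisons with MDA-MB-231.

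Class I presentation genes lie in part in the same region. Of 9 measured, 5 rose and 1 fell in 231BoM-1833, against 8.43% and 7.38% of all clusters. In 231BrM-2a 4 of the 9 rose and 1 fell, against 10.5% and 8.59%. The medians were 0.44 and 0.29. In 231BoM-1833 the genes called were PSMB8, PSMB9, TAPBP, TAP2 and ERAP2, and PSMB10 as lower, while in 231BrM-2a they were B2M, PSMB9, PSMB8 and ERAP2, and TAP2 as lower. ERAP2 did not pass in 231BoM-1833 with any 1 array left out (adjusted p = 0.0522 to 0.206), nor in 231BrM-2a with any of the 4 arrays compared left out (0.0538 to 0.214). PSMB10 was lost in 231BoM-1833 with each array left out in turn other than replicate 2 of 231BoM-1833 (0.0538 to 0.218).

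Ligands that act beside class II on T cells were also listed. Of 12, 1 rose and 1 fell in 231BoM-1833, against 8.43% and 7.38% of all clusters. TNFSF4, the OX40 ligand gene, read 5.29 and 5.23 in MDA-MB-231, 7.12 and 7.28 in 231BoM-1833 and 5.07 and 5.20 in 231BrM-2a, a rise of 3.83-fold in 231BoM-1833 (adjusted p = 1.55e-05). The costimulatory receptor gene CD40 fell by 0.67 in 231BoM-1833 (adjusted p = 0.0147), a call lost without MDA-MB-231 replicate 1 (0.0824) or replicate 2 (0.0801). CD40 rose 1.78-fold in 231BrM-2a (adjusted p = 0.0037), where the adhesion ligand gene ICAM1 rose 2.17-fold (adjusted p = 0.0011). CD80 and CD86, the classical costimulators of antigen-presenting cells, stood at 4.81 to 4.86 and 3.79 to 3.82 (adjusted p = 0.816 to 0.962). Of the 5 measured genes of the MIF receptor set around CD74, 1 was called in 231BoM-1833 against MDA-MB-231 and 0 in 231BrM-2a. The shares called over all clusters were 15.8% and 19.0%. The call was that of the chemokine receptor gene CXCR4, which rose 7.0-fold (adjusted p = 1.19e-05). In 231BrM-2a against 231BoM-1833, where 11.0% of all clusters were lower, 3 of the 5 were: CXCR4 (-3.25, adjusted p = 1.62e-06), CD44 (-0.54, adjusted p = 0.014) and CXCR2 (-0.34, adjusted p = 0.0378). The CD44 call was lost with replicate 1 of 231BoM-1833 left out (0.0565) or either array of 231BrM-2a left out (0.074 and 0.0704), and that of CXCR2 with any 1 array left out (0.0601 to 0.172). CD44, the signalling partner of CD74 and a marker of the sort, had means of 11.86, 12.00 and 11.45 in the parental, bone-selected and brain-selected line. The other markers of the sort were EPCAM, at 8.03, 7.80 and 8.19 in that order of lines, and CD24, whose product the sorted cells lack, at 6.12, 6.12 and 5.91. The 231BoM-1833 replicates read 8.32 and 7.28 for EPCAM and 6.49 and 5.76 for CD24, farther apart than replicates of the other lines. Whether the sorted populations matched, and any part of this in the class II values, was not tested.

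**Figure D4:**
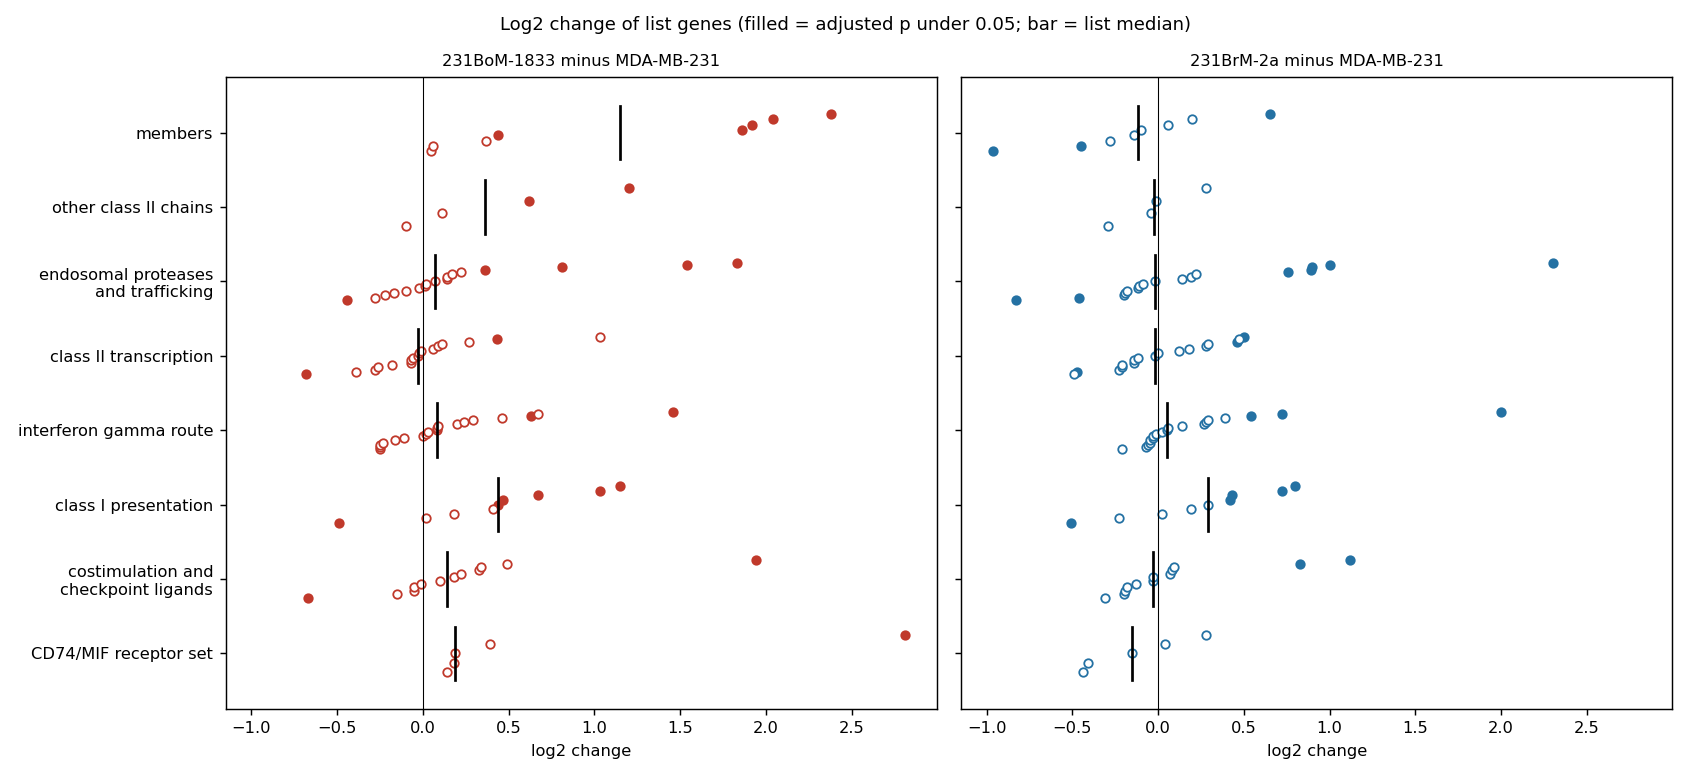
Log2 change of the genes of each list in 231BoM-1833 (left) and 231BrM-2a (right) against MDA-MB-231, 1 point per gene, filled where the adjusted p is under 0.05, with a bar at the list median. The members have a median of 1.15 on the left and -0.12 on the right, and the interferon gamma route has medians of 0.08 and 0.05.

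Because class II is a mark of professional antigen-presenting cells, leukocyte genes were read on the same arrays. Of 29 measured markers of B cells, myeloid cells, T cells and leukocytes at large, 1 rose in 231BoM-1833 (CD14, 1.84-fold, adjusted p = 0.00219) and 0 fell. The shares over all clusters were 8.43% and 7.38%. In 231BrM-2a, where those shares were 10.5% and 8.59%, 1 marker rose (LAPTM5, 1.69-fold) and 2 fell (CD14 and CD83, by 0.50 and 0.54). The CD14 call was lost there without either MDA-MB-231 array (0.113 and 0.0711) or 231BrM-2a replicate 1 (0.133), and CD83 without any 1 of the 4 arrays (0.0545 to 0.159). The mean log2 value of the 29 markers per array was 5.86 and 5.94 in MDA-MB-231, 5.90 and 5.93 in 231BoM-1833 and 5.80 and 5.81 in 231BrM-2a. PTPRC, which encodes the pan-leukocyte antigen CD45, stood at 3.73, 3.68 and 3.71, and the B cell gene MS4A1 at 4.52, 4.53 and 4.62, in that order of lines. Other markers were brighter, with LAPTM5 at 10.99, 10.96 and 11.74 and CD83 at 8.38, 8.62 and 7.84. TYROBP stood at 7.96, 7.85 and 7.78 and CORO1A at 7.25, 7.42 and 7.31, again in that order. RMA values have no zero and no detection limit was given with them, so no marker can be called absent. CD14 moved in the same order of lines as HLA-DPA1, at 7.61, 8.50 and 7.11, and its part in the class II values was not tested.

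Finally, the genes whose centred profiles over the 6 arrays lay nearest to the members with the widest range among the 8 with their own cluster were listed, as a description without a test. Nearest to HLA-DPA1 among 18409 genes outside the set were BEX5, ADGRF5, MAGEC2, TC2N and SESN3, at a root mean square difference of 0.152 to 0.259 log2 units. ADGRF5, an adhesion receptor gene, had means of 8.79, 11.41 and 8.14 in the parental, bone-selected and brain-selected line, and MAGEC2, a cancer-testis antigen gene, at 5.41, 8.04 and 4.73. Nearest to HLA-DPB1 were CNIH3, TNFSF4, THBS2, TNC and ANO5, at 0.103 to 0.176. Within the set, HLA-DMB lay at 0.157, HLA-DMA at 0.222 and HLA-DPA1 at 0.481 from HLA-DPB1, while HLA-DOA lay at 0.766, RFX5 at 0.844, CIITA at 0.853 and IFI30 at 1.187.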

How the data were processed

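Per the submitters' processing notes, the authors summarised the arrays by RMA with Expression Console, and the deposited log2 values, 1 for each transcript cluster on each array, were used as they stand. RMA normalises the arrays together, which hides any difference in RNA content per cell. No source used here names the genome build of the clusters, and the labels name no batch. Of 33297 clusters, 19460 have 1 gene symbol, 1754 several and 12083 none. Array medians were 6.58 to 6.64. Pearson's r across clusters with a symbol was 0.9935 to 0.9959 between replicates and 0.9666 to 0.9832 between lines. The number of arrays limits precision.

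With limma 3.58.1 (lmFit, eBayes, R 4.3.3), 1 mean per line was estimated from the 6 arrays, with 3 residual and 6.06 prior degrees of freedom. Tests were two-sided, and p-values were adjusted (Benjamini-Hochberg) across 21214 clusters with a symbol. The code was tested on simulated data. All members are reported. List genes are named by their calls, up to 6 per list and comparison by size of change, and other list genes are given as values for context. The genes of like profile are the 5 nearest to each of the 2 members with the widest range of line means among the 8 with their own cluster. Alternatives changed the filter on dim clusters, the clusters tested, the normalisation, the variance model, the samples fitted, the block and the choice of cluster. The members and lists were chosen with earlier results of these data known.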

Additional observations from a re-analysis of the deposited data

Results flagged for a closer look

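The derivatives' departures from MDA-MB-231 were set against each other through the direct difference of 231BrM-2a minus 231BoM-1833. Of the 10 values, 9 passed limma's test (adjusted p under 0.05). Among all clusters 23.5% were called, 12.5% higher and 11.0% lower. The log2 differences were -4.47 for HLA-DRA/HLA-DQA1, -3.39 for CD74/ROS1, -3.34 for HLA-DPA1, -2.20 for HLA-DPB1, -2.14 for HLA-DMB, -1.81 for HLA-DMA, -0.52 for HLA-DOA, -0.50 for CIITA and 0.59 for IFI30. RFX5 did not pass (-0.24, adjusted p = 0.119). The calls of HLA-DOA, CIITA and IFI30 were not kept under every alternative, as given with each gene above. IFI30 was the only one of the 10 that was higher in the brain-selected line.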

How the results depend on the processing

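The rises of HLA-DPA1, HLA-DPB1, HLA-DMA, HLA-DMB, HLA-DRA/HLA-DQA1 and CD74/ROS1 in 231BoM-1833 were called in each of 13 alternatives, as were the falls of HLA-DPA1, HLA-DRA/HLA-DQA1 and CD74/ROS1 in 231BrM-2a. Of 390 member values under the alternatives, 365 kept direction and side of the threshold, 19 lost and 1 gained the call, and 5 turned sign, none of them called: CIITA (-0.076 and -0.055 without MDA-MB-231 replicate 1 and 231BoM-1833 replicate 2, at most 0.18 without another array) and IFI30 (-0.017 and -0.090 without MDA-MB-231 replicate 2 and 231BoM-1833 replicate 1, at most 0.21 without another array) in 231BoM-1833, and HLA-DMB in 231BrM-2a (0.068 without MDA-MB-231 replicate 2, -0.28 without replicate 1). Without 1 array at a time, the members called numbered 4 to 6, 1 to 3 and 4 to 7 in 231BoM-1833 against MDA-MB-231, 231BrM-2a against MDA-MB-231 and 231BrM-2a against 231BoM-1833. Endosomal genes called then numbered 3 to 4, 4 to 7 and 6 to 10, and all clusters called 932 to 2936, 1764 to 4751 and 3001 to 4750. A lone array was taken to vary like the other lines and adds nothing to the estimate of the spread. Leaving out either array of the line not compared therefore gave the same fit as the compared lines alone. The 13 alternatives are thus not separate checks. Averaging the clusters of a symbol left the values of joint clusters as they were. Testing clusters with no symbol too gave 2220 clusters called in 231BoM-1833 against MDA-MB-231 in place of 3354. Endosomal genes called there were 3 in place of 5 in that setting, with the compared lines fitted alone (3) and with the replicate block (3). The replicate block left members called at 5, 3 and 7. The labels do not say what a shared replicate number marks, and deviations of same-numbered arrays correlated at 0.036, -0.162 and -0.165, so the numbers were not taken as pairs. The cause of these changes was not tested. Dim clusters are limited by an unknown background.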
